A study of Glycine max with 18 samples.

Results

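The inner integument of the soybean seed, 2 of the 18 arrays in the series, was compared with the 14 arrays of 7 other laser-captured compartments. These were the embryo proper, suspensor, endosperm, endothelium, outer integument, epidermis and hilum, with 2 arrays each, and the 2 whole seed arrays were left out. All seeds came from cultivar Asgrow A3237, kept at 22 °C under a day of 16 h light and 8 h dark, and measured 2.5 to 3.0 mm with embryos at the cotyledon stage. No genotype or treatment separated the groups, which differed only in the tissue cut from 8 µm paraffin sections. From 2 ng of RNA per sample, amplified RNA was hybridised to the Affymetrix Soybean Genome Array, which gives a linear signal for each probe set, a group of short probes for a single transcript. The numbers of plants and seeds behind an array are not stated, so p-values measure only the spread between these samples, part of which may be technical. Whether several compartments were cut from a single seed is also not stated.

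The seed coat is maternal tissue that surrounds the embryo and endosperm. Its vascular bundles deliver sucrose, amino acids and water, which have to leave the maternal cells through membrane transporters because no plasmodesmata join the coat to the embryo. The inner integument lies between the outer integument and the endothelium, the innermost cell layer of the coat. In legumes the coat also converts transported nitrogen compounds and holds reserves that are used up as the embryo grows.

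The 16 captured arrays had a signal of at least 100 for 56.7% to 67.5% of soybean probe sets, and the inner integument arrays for 66.5% and 60.4%. The 95th percentile of the probe sets for other organisms, a measure of background, was 210.2 on inner integument array 1 and 136.3 on array 2, within a range of 124.3 to 218.9 over all captured arrays. The log2 signals of the inner integument arrays correlated at 0.949 over 31760 probe sets, against 0.935 to 0.975 in the other groups. Of these probe sets, 5543 (17.45%) differed by more than 2-fold between the inner integument arrays, and 3874 of them were higher on array 1. Whether background has a part in that imbalance was not tested.

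The label was checked against markers of the other compartments, since no gene on the lists marks the inner integument alone. The summed signal of 4 suspensor genes was 170 and 295 on the inner integument arrays, and 188728 and 158115 in suspensor. The sum of 2 endosperm genes was 633 and 783, against 14626 and 16414 in endosperm. Both of these sets were picked from earlier results of these data, so their sums are no independent check of the label. The sum of 8 embryo genes was 4167 and 5672, against 60939 and 65308 in embryo proper, and most of it came from CAB3, a light-harvesting protein gene. The sum of 5 genes listed for epidermis and hourglass cells was 92611 and 91741 in inner integument, between the arrays of epidermis (74689 and 94739) and above those of hilum (22332 and 36186), and outer integument was highest, at 199378 and 135608. This sum came almost wholly from SCB1 and PRX2, while Ep had 121 and 200, HPS 51.6 and 24.6 and WIN 12.1 and 8.4, so the set did not separate inner integument from epidermis. The part of these other markers in the results was not tested. Genes for the last steps of proanthocyanidin synthesis, listed as markers of the endothelium, summed to 1659 and 1227 in inner integument and to 1434 and 1641 in endothelium. Their sum reached 67647 to 101746 in epidermis and hilum, so in these arrays the set did not mark the endothelium. The sum of 3 phloem genes was 4265 and 3349 in inner integument, above all 14 other arrays, where it was 269 to 1557. This rests on SEOE, since SUT1 was lower than the mean of the other 7 compartments and SEOA was lower than in outer integument.

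Against the mean of the other 7 compartments, each weighted equally, 4234 of 31760 probe sets (13.3%) were higher in inner integument and 4245 (13.4%) were lower. Calls were made with limma at a Benjamini-Hochberg adjusted p under 0.05, on log2 signals with values under 50 set to 50. At least 4-fold differences were more often higher, with 1178 probe sets, than lower, with 780. At least 16-fold, 161 were higher and 25 were lower. In 1761 probe sets (5.54%) the call was higher and both inner integument arrays stood above all 14 others, and in 1184 (3.73%) the call was lower and both stood below. Without inner integument array 1 the counts fell to 2603 higher and 2711 lower, and without array 2 to 2733 and 2798. In captured tissue, more cells of a type and more RNA per cell cannot be told apart, and this holds for every difference given here.

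Endothelium, the neighbouring layer, had the fewest probe sets that differed from inner integument. Against endothelium 1771 probe sets were higher (5.58%) and 2020 lower (6.36%), and the log2 means of both compartments correlated at 0.926. Against outer integument 2878 were higher (9.06%) and 3311 lower (10.4%), with a correlation of 0.874. Against epidermis there were 3647 (11.5%) and 4004 (12.6%), and against hilum 3833 (12.1%) and 4465 (14.1%). Outside the coat the counts were 4499 (14.2%) and 4335 (13.6%) against suspensor, 4627 (14.6%) and 4894 (15.4%) against embryo proper, and 4908 (15.5%) and 4653 (14.7%) against endosperm. The correlations are across probe sets, which are not independent replicates, and share the inner integument arrays. The endothelium counts moved most with single arrays left out. Those higher fell to 778 without inner integument array 1, 1096 without array 2, 1059 without endothelium array 1 and 989 without endothelium array 2, and those lower fell to 1209, without inner integument array 1, and to 1345 and 1319 without endothelium arrays 1 and 2. Against outer integument, those higher fell to 1913 without inner integument array 1 and to 1829 without outer integument array 1, which also took those lower to 2191.

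**Figure D1:**
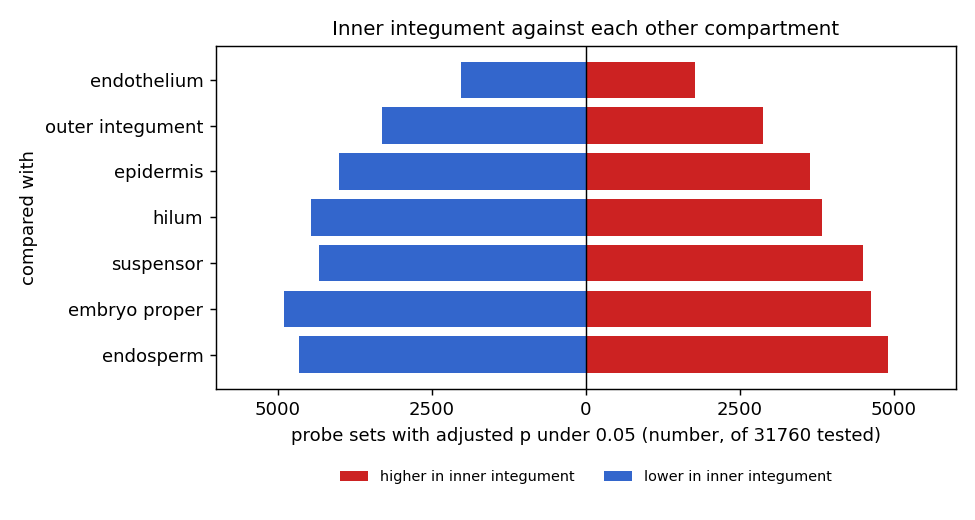
Horizontal bars give the number of probe sets with an adjusted p under 0.05 in inner integument against each other compartment, higher to the right and lower to the left, of 31760 tested. The bars are shortest against endothelium (1771 higher, 2020 lower), and longest to the right against endosperm (4908 higher).

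Further comparisons separated the coat from the rest of the seed. Against the mean of the other 4 seed coat compartments 3581 probe sets were higher (11.3%) and 3782 lower (11.9%), and against the mean of embryo proper, suspensor and endosperm 5140 were higher (16.2%) and 5037 lower (15.9%). Both comparisons use the same inner integument arrays. Higher in both were 2706 probe sets, 75.6% of those higher within the coat and 52.6% of those higher outside it. Only 36 probe sets were higher within the coat and lower against the embryo and endosperm, and 142 the reverse. Within the coat, the number higher fell to 2070 without inner integument array 1 and 2182 without array 2, and the number lower to 2406 without array 1.

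Against every other compartment in turn, 404 probe sets were higher in inner integument (1.27%) and 463 were lower (1.46%). For 212 of the 404 the compartment next in level was the endothelium, and for 70 it was the outer integument. The median distance to that next compartment was 3.09-fold for the 404, and 2.0-fold for the 463. Both inner integument arrays agreed within 2-fold for 387 of the 404 and 431 of the 463. Without endothelium array 2 the count highest in inner integument was 225, without inner integument array 1 it was 197 and without array 2 it was 191. Without inner integument array 1 the count lowest was 288.

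Over the 1041 named genes tested, each by its probe set with the highest mean, 7.68% passed with both arrays above all 14 others and 3.46% below them, and 2.21% were highest and 1.54% lowest against each compartment. Of the 404 probe sets, 145 carry a single gene symbol, and 31 of these belong to 26 genes with a name beyond a locus number. Besides genes described below, these are BZIP28, CEL12, ADH2, CAT1, Rhg1-GmAAT, SAS3, ARF, GT-2A and BZIP105, which were listed in full after their values were seen. CEL12, named as a cellulase, had signals of 9778 and 9507 against 991.0 to 4323 on the other arrays. ADH2, an alcohol dehydrogenase gene, had 8057 and 9554 against 163 to 2780. CAT1, a catalase gene, had 4758 and 6444 against 885.3 to 2470. The groups did not overlap for any of these. The folds over the other 7 were 4.64, 7.68 and 3.41.

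Sugar transport genes held several of the largest differences. Of 14 tested genes for sugar transport and sucrose metabolism, 7 were higher and 2 lower against the other 7 compartments, and the median log2 difference was 1.02. Over all 1041 named genes, 21.2% were higher and 20.7% lower, with a median of -0.01. These are the shares to set beside the counts of every list below against the other 7 compartments. Of the 7, 6 belong to the SWEET family, membrane proteins that let sugars leave cells down a gradient.

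SWEET13 had signals of 6841 and 7925 in inner integument, and 13.8, 126 and 1302 as the lowest, median and highest of the 14 other arrays. Endothelium was next, at 1302 and 1210, no array of the other 6 compartments exceeded 400.4, and the groups did not overlap. The fold over the other 7 was 46.9 (log2 5.55 ± 0.46 SE, adjusted p = 1.14e-07), with 3 of the other arrays under the floor of 50. The mean of the other arrays lay below the background of the other-organism probe sets here and for N6L, SEOE, BBI-1, GST3, SABATH1, VPE2, EN1, CYSP1 and NAC23, so the size of these folds depends on background and floor. SWEET34 had 10004 and 11018, against 231, 465 and 1679. Endothelium was again next, at 1679 and 1145, and no other array exceeded 878. The fold was 20.1 (log2 4.33 ± 0.28 SE, adjusted p = 8.37e-09) over the other 7 and 7.57 over endothelium.

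SWEET24 had 33153 and 46099 in inner integument but its highest level, 79061 and 57743, was in outer integument. Endothelium followed with 27459 and 12532, hilum reached 3106 and every other array was lower, so the high arrays lay in 3 adjoining coat layers and the groups overlapped. Against embryo proper, suspensor and endosperm it was 308-fold higher. SWEET42, SWEET29 and SWEET28 were higher by 2.85-fold, 3.53-fold and 2.29-fold over the other 7, with no overlap. GmC/VIF2, named as an inhibitor of invertases, the enzymes that split sucrose, was higher by 8.55-fold. These 4 were named because they complete the set that passed, after their values were seen.

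The 2 sugar genes that were lower have a role in sucrose use or uptake. SS, a sucrose synthase gene, had 14489 and 14982 against 15333, 29315 and 48616, a 1.95-fold lower level (adjusted p = 8.01e-06). For SUT1, a sucrose importer gene of the phloem, all 3 probe sets had the same sign but only 1 passed. Its brightest probe set had 174 and 71.1 against 61.9, 345 and 840, with its inner integument level below the background of the other-organism probe sets. It was 2.77-fold lower, but its inner integument arrays disagreed, and without array 2 the difference was 1.77-fold and did not pass, which left SS alone. Within the coat, 6 sugar genes were higher and 2 lower, where 17.1% and 16.6% of named genes were called, and the lower count was 1 without any of 7 arrays (embryo proper arrays 1 and 2, endothelium array 1, epidermis array 1, hilum array 2, outer integument array 2 and inner integument array 2). Against the embryo and endosperm, 8 were higher and 3 lower, where 25.7% and 24.3% of named genes were called, and without inner integument array 2 there were 5 higher.

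Sieve element occlusion genes encode the proteins that plug legume sieve tubes after injury. SEOE had signals of 3660 and 3135 against 5.6, 56.1 and 912, with endothelium next at 912 and 416 and no other array above 158.3. Its fold over the other 7 was 35.8 (log2 5.16 ± 0.42 SE, adjusted p = 8.57e-08), with 6 other arrays under the floor, and its other probe set was 7.49-fold higher. Of the 6 tested genes of this family, 2 were higher and none lower. The other was SEOA, at 432 and 143, whose highest level was 1232 in outer integument. SEOA was 2.38-fold higher, and without inner integument array 1 it was 1.37-fold higher and did not pass. SEOS and SEOM, at 116 and 108 and at 142 and 92.1, lay within the range of the other arrays.

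Starch genes moved in both directions. BMY2, a beta-amylase gene for starch breakdown, had signals of 3571 and 7071 against 52.0, 178 and 1869, and the groups did not overlap. Endosperm was the next compartment, and the fold over the other 7 was 17.4 (log2 4.12 ± 0.40 SE, adjusted p = 6.06e-07). BMY1 (LOC547684), another beta-amylase gene, had 15598 and 20555 against 1295, 3030 and 12903 and was 5.54-fold higher, although only 2 of its 3 probe sets had this sign. GBSSIa, which makes amylose in starch granules, had 468 and 625 against 243, 2376 and 17841, a 4.70-fold lower level shown by 1 of its 3 probe sets. The 4 tested starch genes thus held 2 higher and 1 lower, and BMY1 (LOC547931) was 1.59-fold lower without passing. The beta-amylase genes therefore did not share a direction. Within the coat 2 starch genes were higher and 2 lower, the latter 1 with no filter, where 17.1% and 16.6% of named genes were called.

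**Figure D2:**
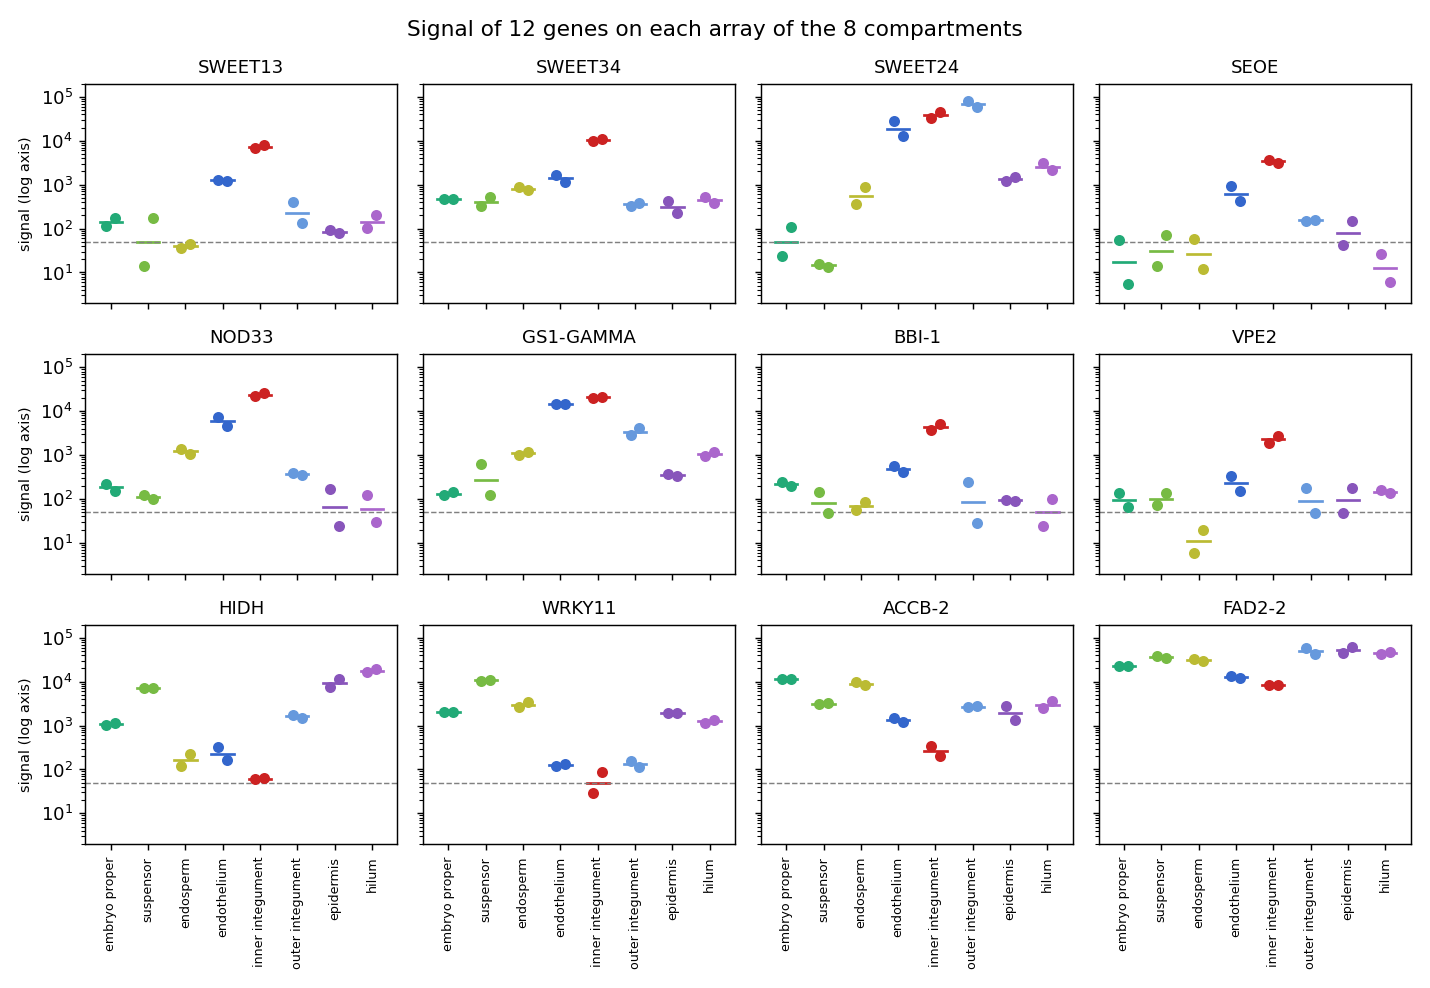
Signal on a log axis for 12 genes on each array (points) of the 8 compartments, with the geometric mean of the deposited signals as a bar and the floor of 50 as a dashed line. In the upper rows the inner integument arrays stand above all others for each gene except SWEET24, which peaks in outer integument. In the lowest row HIDH, WRKY11, ACCB-2 and FAD2-2 have their lowest arrays in inner integument.

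Genes of nitrogen assimilation moved in both directions, with 6 of 27 higher, 6 lower and a median log2 difference of 0.07, close to the 21.2% and 20.7% of all named genes. GS1-GAMMA, a cytosolic glutamine synthetase gene, had signals of 20275 and 21147 against 120, 979 and 14955. The endothelium arrays, at 14955 and 14571, were close behind, and the difference between the layers was 1.40-fold and did not pass. The fold over the other 7 was 21.7 (log2 4.44 ± 0.37 SE, adjusted p = 1.14e-07). GDH1, a glutamate dehydrogenase gene, had 5238 and 5433 against 7.2, 607 and 4877 and was 9.80-fold higher. Outer integument was next and did not differ beyond the spread.

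Another glutamine synthetase gene, GS (LOC548082), ran the other way. It had 3086 and 2772 against 818, 9210 and 41701, with its highest level in hilum, and was 3.39-fold lower, although 2 of its 4 probe sets had the opposite sign. OAS-TL1 (LOC547631), for the last step of cysteine synthesis, had 2900 and 1862 and stood below all other arrays, which began at 4369, a 2.95-fold difference. Without inner integument array 1 the count of higher nitrogen genes was 3, and without array 2 the count of lower ones was 3. Within the coat 4 were higher and 7 lower, where 17.1% and 16.6% of named genes were called. For the comparison with the embryo and endosperm, given next, those shares were 25.7% and 24.3%. Against the embryo and endosperm 7 were higher and 8 lower, the latter 4 without inner integument array 2 and 5 without endosperm array 2.

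Genes for aquaporins, channels for water and small solutes, had 7 of 21 members higher and 4 lower, with a median of 0.04. The shares over all named genes were 21.2% and 20.7%. PIP2-9 had signals of 15026 and 17450 against 201, 2150 and 16287, a 9.22-fold higher level, and outer integument was at the same level. PIP2-6 had 50256 and 51852, with endothelium reaching 66878, and was 5.84-fold higher. PIP1-6, at 2272 and 4694 against 961, 18474 and 32395, was 3.75-fold lower, and PIP1-1 was 3.86-fold lower. PIP2-4 was among the largest differences within the coat, with 1546 and 3209 against a highest level of 75116 in epidermis, a log2 difference of -3.17 (adjusted p = 0.00011), which was -2.50 and did not pass without epidermis array 2, inner integument array 1 and outer integument array 1 together. Against the embryo and endosperm it was higher by 2.10 on the log2 scale, which did not pass without inner integument array 2. The count of higher aquaporins was 3 without inner integument array 1 and 4 without array 2.

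NOD33, a gene named for nodules, had the largest difference among named genes. Its signals were 22081 and 25927 against 23.8, 197 and 7569, with endothelium next at 7569 and 4529 and endosperm at 1411 and 1053. The fold was 73.2 over the other 7 (log2 6.19 ± 0.40 SE, adjusted p = 8.37e-09) and 4.09 over endothelium. N6L, listed beside it, had 7718 and 8186 against 28.7, 107 and 2034 and was 53.6-fold higher. N-26, for a channel of the nodule membrane, had 3390 and 2215 and was 8.08-fold higher, but outer integument reached 10272. Of 12 tested genes named as nodulins, these 3 were higher and none was lower, beside 21.2% and 20.7% of all named genes. N-36A (38.7 and 66.4) was at the level of background. The probe sets of NOD33, BBI-1, VPE2, GST3 and SGT3 (LOC732565) carry a suffix for probes that can also bind related transcripts. Some others named in the text do too, among them those of CEL12, ELIP, RPL37, SUT1 and KTI3.

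Protease inhibitors and proteases of the vacuole were the next group. BBI-1, a Bowman-Birk inhibitor gene, had signals of 3758 and 4987 against 24.8, 98.8 and 577, with endothelium highest among the others. The fold over the other 7 was 34.8 (log2 5.12 ± 0.52 SE, adjusted p = 9.08e-07) and over endothelium 8.77, and its other probe set was 8.76-fold higher over the other 7. CYSTATIN, an inhibitor of cysteine proteases, was 1.99-fold higher, at 5484 and 5674, and KTI3, a trypsin inhibitor gene of the embryo, was under the floor on both arrays. Of 14 tested genes for storage proteins, lectins and inhibitors, 2 were higher and 1, KTI3, was lower, beside 21.2% and 20.7% of all named genes. KTI3 did not pass without either inner integument array, and without hilum array 1 or outer integument array 2 the count of lower genes was 2.

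VPE2, a vacuolar processing enzyme gene, had signals of 1872 and 2789 against 5.9, 135 and 329, with no overlap. Its fold was 21.8 (log2 4.44 ± 0.53 SE, adjusted p = 5.51e-06), and its other probe set gave 20.9. CYSP1, a cysteine protease gene, had 310 and 1058 against 4.5, 48.4 and 179 and was 8.45-fold higher, 15.6-fold without array 1 and 4.58-fold without array 2. Its relative CP3 had 129 and 131 and was 4.55-fold lower, since suspensor reached 23077. VPE had 147 and 135 and was 3.63-fold lower, with its highest level, 5907, also in suspensor. The 6 tested genes of this list thus held 2 higher and 2 lower.

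Several other genes had large differences. SGT3 (LOC732565) had signals of 10613 and 11670 against 15.3, 77.7 and 4947. All 6 arrays of embryo proper, suspensor and endosperm were under the floor, so that against these the gene was at least 223-fold higher, with the floor of 50 on each array, and the 2.41-fold difference from endothelium did not pass. Its other probe set, which carries no such suffix, had 2218 and 2388 against a highest other array of 649.9, was 4.39-fold higher than endothelium (adjusted p = 0.0118) and was highest against each compartment. For the probe set with the suffix, the fold over the other 7 was 60.6 (log2 5.92 ± 0.35 SE, adjusted p = 4.14e-09). For the probe set without it, the fold was 26.2 (log2 4.71 ± 0.40 SE, adjusted p = 1.36e-07), with the mean of the other arrays below background.

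SABATH1, of a family of methyltransferases for small metabolites, had 3054 and 3167 against 6.7, 116 and 513 and was 22.4-fold higher. ALDH10A2, an aldehyde dehydrogenase gene of the betaine aldehyde type, had 11637 and 10681 against 118, 534 and 3614 and was 19.3-fold higher. Neither overlapped the other arrays, and both were highest against each compartment in turn. MS (2353 and 3510 against 88.2, 214 and 617) was 12.3-fold higher and also highest against each.

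GST3, a glutathione S-transferase gene, had 1455 and 5276 against 54.1, 103 and 248, so the inner integument arrays differed from each other but not in direction. It was 26-fold higher, 49.5-fold without array 1, 13.6-fold without array 2 and 57.5-fold without epidermis array 2, inner integument array 1 and outer integument array 1 together. EN1 had 739 and 2153, endosperm had 628 and 718, an epidermis array had 55.0, and the other 11 arrays were under the floor. Its fold of 17.3 became 29.5 without array 1, 10.1 without array 2, 9.61 with a floor of 100 and 51.8 with no floor. CDPK-GAMMA, a calcium-dependent protein kinase gene, had 3869 and 4169 and was 14.5-fold higher, with endothelium reaching 2361.

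**Figure D3:**
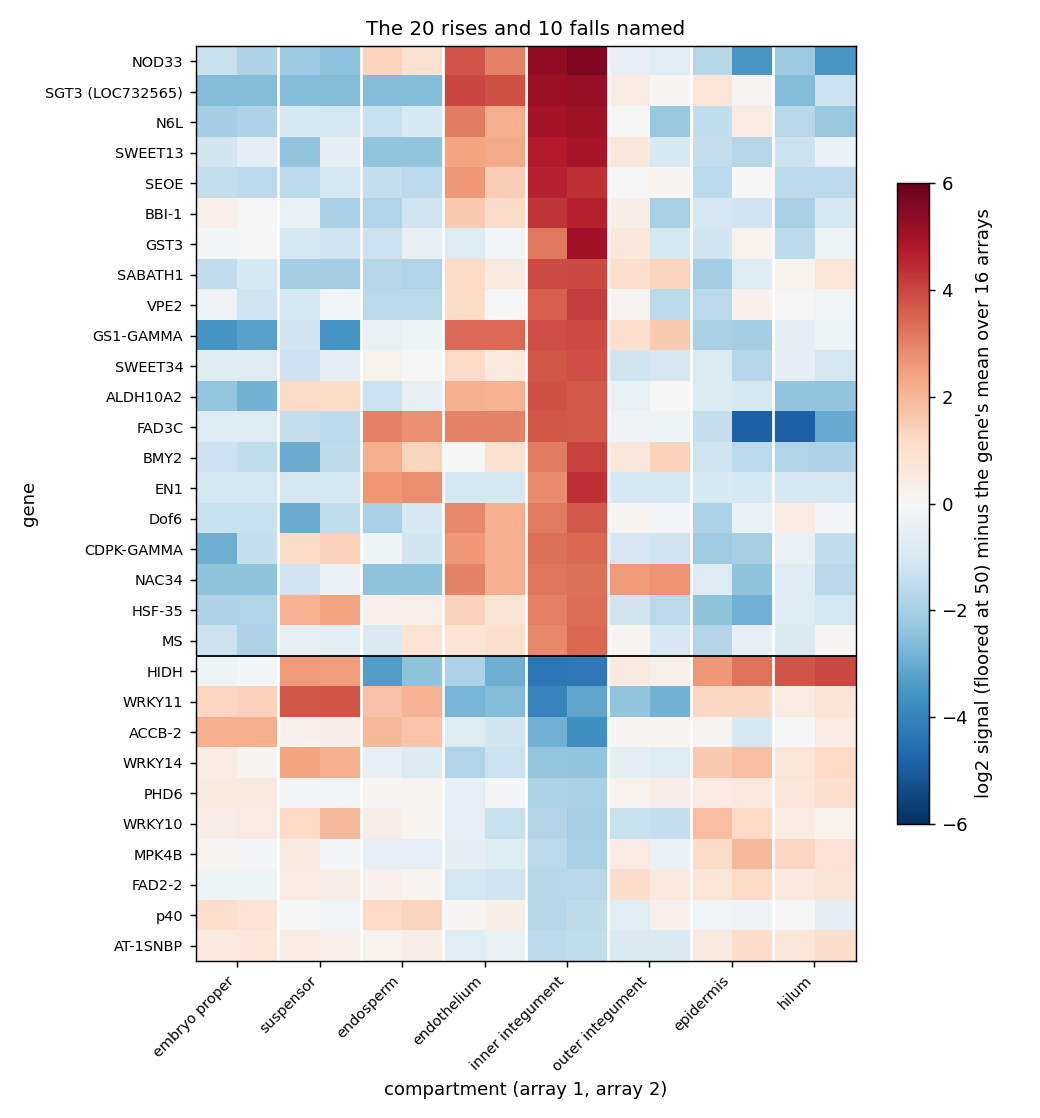
Colour gives the log2 signal, floored at 50, minus the gene's mean over the 16 captured arrays, for the 20 largest rises (above the line) and the 10 largest falls (below it) without overlap between inner integument and the other 14 arrays. Endothelium shares the higher level for many of the rises, and the falls are shallower, from 30.5-fold for HIDH to 3.34-fold for AT-1SNBP.

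Hormone genes held single large differences rather than shifts of whole lists. GA2OX6, whose enzyme inactivates gibberellins, had signals of 6367 and 8329 against 7.6, 88.4 and 11752. Endothelium was higher still, at 11752 and 9567, so the layers overlapped, and every other array was far below. The fold over the other 7 was 35.9 (log2 5.17 ± 0.34 SE, adjusted p = 1.13e-08). GASA9 and GASA3, for small gibberellin-responsive peptides, were 5.21-fold and 3.11-fold higher, while GASA33, at 207 and 234 against a highest level of 22159 in epidermis, was 5.28-fold lower. In all, 6 of 21 gibberellin genes were higher and 4 lower, with a median of 0.21, beside 21.2% and 20.7% of all named genes.

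AUX22, an auxin-induced gene of the Aux/IAA repressors, had 15575 and 18435 against 17.9, 341 and 25798. As with GA2OX6 the endothelium was higher, at 24794 and 25798, and the fold over the other 7 was 31.0 (log2 4.95 ± 0.24 SE, adjusted p = 7.76e-10). Of the 8 auxin genes, 2 were higher and 2 lower. The other 3 were TIR1C, an auxin receptor gene (1.93-fold higher), LAX11, an auxin importer gene with its highest level in endosperm (2.23-fold lower), and ADR11 (1.82-fold lower). TIR1C and ADR11 did not pass without array 2, at 1.76-fold and 1.06-fold, and LAX11 did not pass without array 1, at 1.87-fold.

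MADS-box transcription factors were higher in inner integument than in the embryo and endosperm. Of 6 tested, 5 were higher against the other 7 compartments, and all 6 were higher against embryo proper, suspensor and endosperm, with a median log2 difference of 4.30. Within the coat the median was 0.00, with 1 higher and 1 lower. Of all named genes, 25.7% were higher against the embryo and endosperm, and within the coat 17.1% were higher and 16.6% lower. AGL1L had signals of 12377 and 11881 in inner integument, 4.0 as the lowest other array and 21574 in outer integument. Its log2 difference was 6.59 against the embryo and endosperm and -0.22 within the coat. MADS28 gave 6.18 and 0.01, SEP1 gave 5.55 and -0.01, and AGL3L gave 3.05 and 0.14. Levels were not even across the coat. The geometric mean of MADS28 was 1458 in endothelium and 5990 in inner integument, a 4.11-fold difference by limma (adjusted p = 0.00583). The coat call that was higher, AP1A, and the lower call, NMH7, were named after their values were seen. AP1A did not pass without any of 11 single arrays, and NMH7 did not pass without inner integument array 2.

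NAC factors were more often higher, with 8 of 18 higher, 1 lower and a median log2 difference of 1.01. Over all named genes the shares were 21.2% and 20.7%. The median was 0.90 within the coat, where 8 were higher and none lower, beside 17.1% and 16.6% of named genes. NAC34 had signals of 2493 and 2654 against 10.4, 137 and 2135, with endothelium and outer integument close behind, and was 13.2-fold higher (log2 3.72 ± 0.42 SE, adjusted p = 2.83e-06). NAC23 had 793 and 1132 against 5.9, 96.2 and 196, was 10.7-fold higher and was highest against each compartment. NAC14 had 7575 and 11087 against 169, 2255 and 4993 and was 7.33-fold higher, a sign shown by 2 of its 3 probe sets. The lower call, NAC32, under the floor on both inner integument arrays and named after its value was seen, did not pass without either array.

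The bZIP factors held 17 of 58 higher and 7 lower, with a median of 0.32, beside 21.2% and 20.7% of all named genes. BZIP126 had signals of 19817 and 13977 against 327, 3549 and 19161 and was 6.21-fold higher, with outer integument at a like level. BZIP28, at 10411 and 13091 against 2942, 5596 and 7019, was 2.15-fold higher and above every other array. bZIP84 was 5.39-fold and BZIP53B 2.65-fold higher, also without overlap. The count of higher bZIP genes was 9 without inner integument array 2, and that of lower ones was 2 without array 1 and 3 without array 2.

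Other regulators were mixed, where 21.2% of all named genes were higher and 20.7% lower. Of 56 MYB factors 8 were higher and 6 lower, counts that were 5 and 3 without inner integument array 1. MYB75, at 2053 and 3595 beside a highest other array of 2474 in endothelium, was 15.8-fold higher. MYB73, at 9593 and 13961, was 12.5-fold higher and peaked in hilum, at 27341. Of 45 WRKY factors 5 were higher and 6 lower. Dof6, a zinc finger factor, had 3425 and 5106 and was 14.7-fold higher. HSF-35, a heat shock factor, had 3056 and 3805 and was 12.6-fold higher, with suspensor reaching 1890.

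The 10 largest falls held 3 WRKY factors, although the 5 higher and 6 lower of 45 are smaller shares than the 21.2% and 20.7% of all named genes. WRKY11 had signals of 28.4 and 89.1 against 113, 1904 and 11029, and both inner integument arrays stood below all others. Outer integument (113 on its lower array) and endothelium were nearly as low, suspensor was highest, and the fold was 17.2 lower (log2 -4.11 ± 0.25 SE, adjusted p = 5.53e-09). WRKY14, at 73.2 and 71.4, was 6.32-fold lower, and WRKY10, at 148 and 127, was 4.45-fold lower. WRKY51 and WRKY54 were higher by 2.28 and 3.32 on the log2 scale. The levels of WRKY11, WRKY14, WRKY10 and HIDH in inner integument lay below the background measured on the other-organism probe sets, so the size of these folds depends on background.

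**Figure D4:**
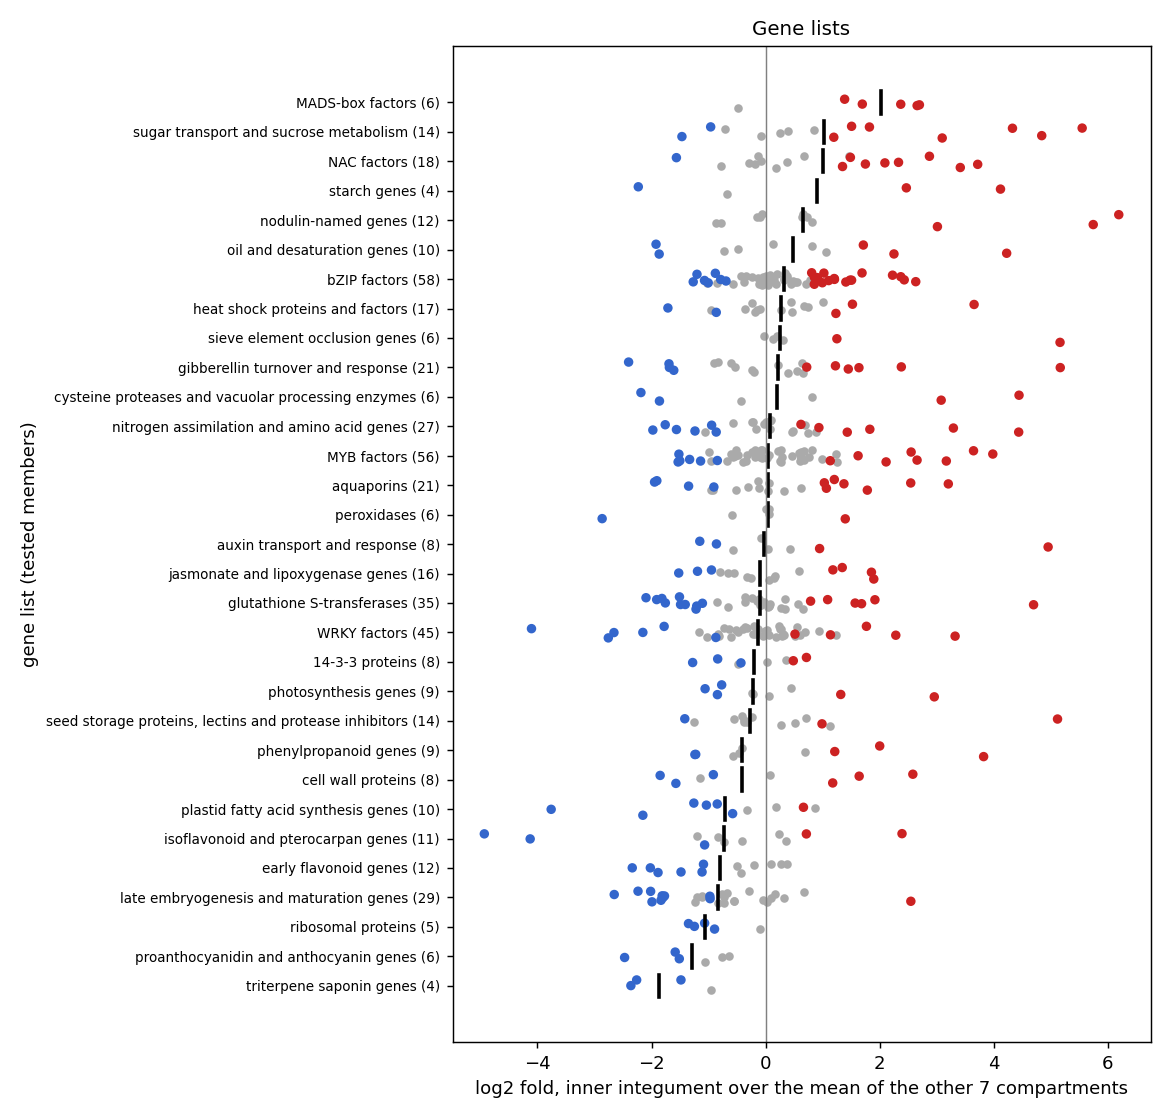
Each point is the log2 fold of a gene in inner integument over the mean of the other 7 compartments, by gene list, in red (higher) or blue (lower) at an adjusted p under 0.05 and in grey otherwise. Black bars are list medians, which run from 2.03 for the 6 MADS-box factors to -1.87 for the 4 triterpene saponin genes, and points are spread vertically at random.

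The largest fall among named genes by the naming rule was in isoflavone synthesis. HIDH, the dehydratase that completes the isoflavone skeleton, had signals of 60.0 and 62.9 against 118, 1649 and 19318, with no overlap. It was highest in hilum and nearest in endosperm and endothelium. It was 30.5-fold lower (log2 -4.93 ± 0.28 SE, adjusted p = 3.01e-09), and 3 of its 4 probe sets had this sign. IF7MaT, which adds a malonyl group to isoflavone glucosides, was under the floor on both inner integument arrays (24.0 and 36.5) and reached 12949 in suspensor, so it was at least 228-fold lower than in suspensor, while outer integument and epidermis arrays were as low (2.2 to 55.7). Of 11 isoflavonoid genes, 3 were lower and 2 higher, near the shares over all named genes (20.7% and 21.2%), the latter IFR1 and IFR2, isoflavone reductase genes. Neither passed without inner integument array 1, where IFR1 went from 5.25-fold to 3.44-fold and IFR2 from 1.64-fold to 1.55-fold.

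Of 12 early flavonoid genes 6 were lower and none higher, with a median log2 difference of -0.80. CHI4A, a chalcone isomerase gene, had signals of 1044 and 832 against 144, 3551 and 37712 and was 4.06-fold lower. CHI2-A, at 260 and 346, was 5.06-fold lower, and CHS8, a chalcone synthase gene at 134 and 155, was 3.70-fold lower. Hilum was highest for CHI4A and CHS8, and suspensor for CHI2-A, so inner integument lay within the range of the other arrays. The count of 6 was 3 without inner integument array 1, inner integument array 2 or embryo proper array 1.

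Proanthocyanidin and anthocyanin genes were low relative to epidermis and hilum. Of 6 tested, 4 were lower and none higher within the coat, with a median of -2.38, beside 16.6% and 17.1% of named genes. Against embryo proper, suspensor and endosperm 2 were higher and 1 was lower, beside 25.7% and 24.3% of named genes, and the median was 0.43. ANS2, an anthocyanidin synthase gene, had signals of 379 and 503, with 39798 in hilum and 61.1 in embryo proper. Its log2 difference was -3.50 within the coat (adjusted p = 4.3e-07) and 1.14 against the embryo and endosperm, which did not pass without inner integument array 2. ANR1, an anthocyanidin reductase gene of proanthocyanidin synthesis, had 302 and 297 against a highest level of 39338 in hilum, and a log2 difference of -3.21 within the coat. Endothelium and outer integument were low in these genes too. Against outer integument the differences of ANS2 (1.93-fold), ANR1 (1.2-fold) and DFR1 (1.5-fold) did not pass, and those of ANS2 and ANR1 against endothelium did not either.

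Among the 9 phenylpropanoid genes upstream of flavonoids and lignin, 3 were higher and 2 lower, beside 21.2% and 20.7% of all named genes. 4CL1, a 4-coumarate-CoA ligase gene, had signals of 2455 and 3881 against 3.9, 144 and 4034 and was 14.2-fold higher, at the level of endothelium. C4H, cinnamate 4-hydroxylase, had 8371 and 9177 and was 4.0-fold higher, with hilum at a like level. The 2 lower calls were 4CL4, 2.34-fold, and CCR, 2.36-fold. Neither passed without inner integument array 1, with CCR at 1.61-fold, and 4CL4 did not pass without array 2. Of 4 triterpene saponin genes, 3 were lower and none higher, with a median of -1.87. SGT3 (LOC732565), which was higher as described above, shares its name with a listed gene but is not on this list. CYP72A67, of the saponin aglycone pathway, had 215 and 280 against 162, 892 and 13496 and was 5.14-fold lower, with its highest level in outer integument. SGT2 and SGT3, saponin glycosyltransferase genes, were 4.79-fold and 2.80-fold lower, and SGT2 was 3.11-fold without array 1.

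**Figure D5:**
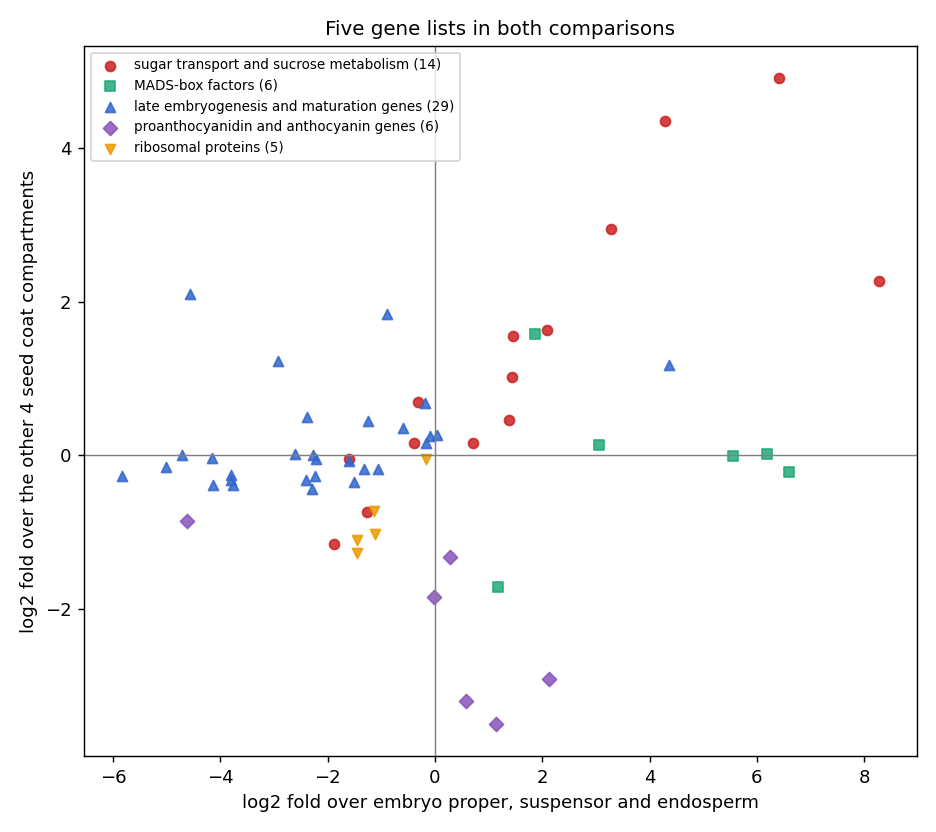
Each point is a gene, with its log2 fold in inner integument over embryo proper, suspensor and endosperm on the horizontal axis and over the other 4 seed coat compartments on the vertical axis. MADS-box factors AGL1L, MADS28, SEP1 and AGL3L lie far right near 0 on the vertical axis, SWEET13 and SWEET34 are above 4 on both axes, ribosomal proteins lie below 0 on both, and ANS2 and ANR1 are below -3 on the vertical axis only.

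Genes for fatty acid synthesis in plastids were more often lower than higher against the other 7 compartments, with 6 of 10 lower, 1 higher and a median log2 difference of -0.71. The median was -0.16 within the coat and -1.27 against the embryo and endosperm. Of named genes, 16.6% were lower and 17.1% higher within the coat, and 24.3% and 25.7% against the embryo and endosperm. ACCB-2, for the biotin carrier subunit of acetyl-CoA carboxylase, had signals of 344 and 198 against 1200, 2938 and 11616. Both arrays stood below all others, of which endothelium was nearest and embryo proper highest. It was 13.6-fold lower (log2 -3.76 ± 0.25 SE, adjusted p = 1.05e-08), and lower in each of the 7 comparisons. ACCC-3, for the biotin carboxylase subunit, had 4525 and 4155 and was 2.39-fold lower, and KASII-A, a ketoacyl-ACP synthase gene, had 6523 and 6232 and was 2.05-fold lower, both below every other array. FAT1 was 1.58-fold higher, and without inner integument array 1 the higher count was 2. Within the coat 4 were lower and 2 higher, the latter 1 without inner integument array 2, and against the embryo and endosperm 7 were lower. Without inner integument array 2 the count of 6 was 3.

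Desaturases acting after fatty acid synthesis went both ways. FAD2-2, an oleate desaturase gene, had signals of 8529 and 8613 against 12046, 36530 and 60829, below every other array, and was 3.79-fold lower (log2 -1.92 ± 0.14 SE, adjusted p = 2.17e-08). FAD3C, for the next step to linolenic acid, had 19712 and 18953 against 19.6, 881 and 12170. It was 18.7-fold higher and above every other array, although neither endosperm nor endothelium differed from it beyond the spread. FAD8.2, a plastid desaturase gene, was 4.76-fold higher, and DGAT3-2, for an enzyme that completes triacylglycerol, was 3.28-fold higher without overlap. Of 10 genes for oil and desaturation, 3 were higher and 2 lower.

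Ribosomal protein genes were lower by like amounts within and outside the coat. Of 5 tested, 4 were lower and none higher, with a median log2 difference of -1.07 over the other 7, -1.03 within the coat and -1.13 against the embryo and endosperm. RPL2 had signals of 10731 and 11557 against 23357, 25798 and 39557, below every other array and 2.55-fold lower (log2 -1.35 ± 0.12 SE, adjusted p = 2.08e-07). RPL37, at 10876 and 10444 against 19080, 24085 and 43101, was 2.38-fold lower. RPS13 and RPS6 were 1.86-fold and 2.10-fold lower, and RSP13, the member left over, lay within the range of the others. Few ribosomal genes carry a usable name on this array, so the count describes these 5 alone.

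The falls of PHD6, MPK4B, p40 and AT-1SNBP complete the 10 largest by the naming rule, and in these both inner integument arrays lay below all 14 others and each of the 7 comparisons passed. PHD6, for a PHD-finger protein, had 3131 and 3032 against 8181, 14213 and 22700 and was 4.52-fold lower. MPK4B, a MAP kinase gene, had 470 and 379 and was 4.07-fold lower, with its highest level, 5527, in epidermis. p40, at 704 and 799, was 3.59-fold lower, and AT-1SNBP, at 7220 and 7489, was 3.34-fold lower. The rule takes the probe set with the highest mean, and other probe sets of PIP2-1 and PSAD, named after their values were seen, were also lowest against each compartment. That of PIP2-1, an aquaporin gene, had 76.7 and 49.3 against 116.6 to 9408 and was 18-fold lower, but its brighter probe set was 2.30-fold higher. That of PSAD, a photosystem I subunit gene, had 671 and 524 against 1171 to 22875 and was 6.83-fold lower, with the same sign in all 3 probe sets. The other named genes lowest against each compartment were PDIL-1, MYB112, NDK I and CYP11, by 2.26-fold to 2.90-fold, besides those described above.

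Late embryogenesis and maturation genes differed more outside the coat than within it. Against embryo proper, suspensor and endosperm 22 of 29 were lower and 1 was higher, with a median log2 difference of -2.27. Of named genes, 24.3% were lower and 25.7% higher in that comparison, and 16.6% and 17.1% within the coat. Within the coat the median was -0.04, with 3 higher and none lower, and against the other 7 together 10 were lower and 1 higher. A fall against these compartments together can rest mostly on suspensor. PM32, a suspensor marker, was 578-fold lower than in suspensor and 6.36-fold lower than in endosperm, but its 1.45-fold difference from embryo proper did not pass. Several, such as MP2 (5.8 and 5.4 in inner integument, 50321 in suspensor) and PM29 (32.5 and 7.9), were under the floor on both inner integument arrays. MP2 was under it on every other coat array too, so its log2 difference of 0.0 within the coat was set by the floor. LEA-2, the gene called higher against the other 7, had 3091 and 3574 against 86.3, 826 and 3551, a 5.84-fold higher level shared with outer integument. The count of 10 was 6 without either inner integument array, 17 with a floor of 100 and 5 with no floor, and the coat count of 3 was 1 without either array.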

How the data were processed

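The deposited signal intensity values, on a linear scale, were made by the authors with GCOS 1.3, per the submitters' processing notes, and the 2% trimmed mean of every array was 500. Of 61170 probe sets, 37593 are for soybean. Signals under 50 were set to 50 and log2 values taken. The 31760 probe sets that reached a signal of 100 on 2 or more of the 16 captured arrays were fitted together with limma 3.58.1 in R 4.3.3 (lmFit, eBayes with a variance trend), with a mean per compartment and 10 contrasts. Adjustment followed Benjamini-Hochberg, contrast by contrast, and calls needed an adjusted p under 0.05. A list is described by its counts and median beside those of the 1041 named genes tested, each by its probe set with the highest mean. Among tested probe sets 7828 carry a single gene symbol, 343 several and 23589 none in the platform annotation, which can be old.

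Genes named are the 20 largest rises and 10 largest falls with no overlap between inner integument and the other 14 arrays, the 5 largest each way within the coat, up to 4 genes per list with the smallest p, and the markers. Others are named as chosen after their values were seen, which also holds for RSP13. The comparison, the 31 lists and the markers were chosen with earlier results of these data known. In 3 simulated runs, 200 of 31760 probe sets were changed. The comparison with the other 7 compartments recovered 31.8% of 2-fold, 80.6% of 4-fold and 98.5% of 8-fold changes, with a mean of 6 false calls. Only probe sets with a mean signal over 200 were changed, and the noise was normal with no floor. All compartments otherwise had the same mean, and far fewer probe sets differed than were called here. These rates therefore need not hold for the data. The number of arrays limits the precision. Other floors, filters, a quantile normalization, all 18 arrays, no variance trend, a replicate block and the omission of single arrays were tried as alternatives.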

Additional observations from a re-analysis of the deposited data

How the results depend on the processing

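Without epidermis array 2, inner integument array 1 and outer integument array 1, 3 of the 4 captured arrays of highest background (hilum array 2, the highest, was kept), the counts against the other 7 compartments were 2563 higher and 2777 lower, against endothelium 784 and 1276, against outer integument 1340 and 1586, against epidermis 2001 and 2425, and within the coat 1981 and 2269, with 160 probe sets highest and 275 lowest in inner integument. That setting has fewer samples. With no variance trend 256 were lowest, and the cause was not tested. Floors of 25 and 100, no floor, a filter of 300, no filter, quantile normalization and all 18 arrays left each of these counts within 1.5 times. With single arrays left out, the higher and lower counts ranged from 2603 to 4433 and 2711 to 4380 against the other 7, 3211 to 4820 and 3497 to 5064 against embryo proper, 3267 to 4563 and 3458 to 4401 against suspensor, and 3556 to 5093 and 3414 to 4842 against endosperm. They ranged from 778 to 1966 and 1209 to 2182 against endothelium, 1829 to 3075 and 2191 to 3485 against outer integument, 2648 to 3816 and 3119 to 4207 against epidermis, and 2784 to 4004 and 3192 to 4674 against hilum. The ranges were 2070 to 3766 and 2406 to 3974 within the coat, 3516 to 5229 and 3627 to 5106 against the embryo and endosperm, and 191 to 425 highest and 288 to 470 lowest.

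Array numbers are shared between compartments, but the deviations of same-numbered arrays correlated at -0.073 to 0.083 over 28 pairs of groups. These values did not point to pairing by number. They cannot tell whether compartments share seeds, since noise between arrays can hide it. With the replicate block there were 4187 higher and 4184 lower against the other 7, 400 highest and 454 lowest, and none of the 22 counts of probe sets moved by over 1.5 times, while AP1A lost its call within the coat. Of 4331 values for 167 named genes or comparisons under alternatives, 103 lost the call, 18 gained it and 0 reversed. Signals near background limit the size of the folds, for genes low in inner integument and for rises from a low level elsewhere.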

Other observations

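Genes of jasmonate synthesis and lipoxygenases had 4 of 16 members higher and 3 lower in inner integument against the other 7 compartments, where 21.2% and 20.7% of named genes were called. Against the embryo and endosperm 7 were higher, and within the coat none was higher and 5 were lower by limma, with 1 higher without endothelium array 2 or epidermis array 2 and 2 lower without either inner integument array. Of named genes, 25.7% were higher against the embryo and endosperm, and within the coat 17.1% were higher and 16.6% lower. AOC3, an allene oxide cyclase gene, had signals of 8341 and 11035 and was 3.62-fold higher over the other 7, but outer integument reached 22371. LOX7, a lipoxygenase gene, had 1119 and 1690 against a highest level of 57950 in outer integument, with a log2 difference of -2.88 within the coat and 3.07 against the embryo and endosperm. For the list over the other 7, the counts of higher and lower genes were 2 and 1 without inner integument array 1, and the lower count was 1 or 0 without any of 7 arrays (inner integument arrays 1 and 2, embryo proper arrays 1 and 2, endosperm array 2, epidermis array 2 and outer integument array 2).

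Cell wall genes had 3 of 8 members higher and 3 lower, and peroxidase genes 1 of 6 in each direction. For these and the lists that follow, the shares over all named genes were 21.2% higher and 20.7% lower. EXP2, an expansin gene, had signals of 783 and 1559 against 904, 3558 and 17608 and was 3.60-fold lower. PRX2B, a peroxidase gene, had 1345 and 251 and was 7.29-fold lower, 16.9-fold without array 1 and 3.15-fold without array 2. Each cell wall count was 1 in some single omission, with inner integument array 1 or 2 left out for the higher genes and array 2 for the lower ones. Photosynthesis genes had 2 of 9 higher and 3 lower, the latter 0 without inner integument array 1, and ELIP, for an early light-inducible protein, was 7.77-fold higher, at 10205 and 12941 against a highest other array of 6003. Heat shock genes had 3 of 17 higher and 2 lower, the higher count being 1 without inner integument array 1. Glutathione S-transferase genes had 6 of 35 higher and 10 lower, the latter 5 without inner integument array 2. Genes for 14-3-3 proteins had 2 of 8 higher and 3 lower, of which none was higher without either inner integument array and 1 was lower without array 2.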
